A study of Homo sapiens with 6 samples.

Results

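The genes described here are the Wnt ligands, the proteins that secrete them, their frizzled receptors and co-receptors, and the regulators of receptor turnover. Also included are the dishevelled proteins, beta-catenin with its destruction complex, the LEF/TCF transcription factors and the TLE family. They were chosen by gene name, with earlier results of these data known. Of the 74 protein-coding genes that RefSeq lists under those names, 47 were among the 18164 genes available for analysis. The other 27 are not analysed here, among them LRP6, TCF7L1, LGR5, WNT3A, WNT11 and all 8 listed secreted antagonists of the DKK and SFRP families. Poly(A) RNA was sequenced from LNCaP cells, an established line from human prostate cancer that the labels give as wild type. In 3 samples the cells had been kept for 14 days in 5 µM enzalutamide, a drug for prostate cancer, and in 3 samples they had received the vehicle dimethyl sulfoxide (DMSO). All cells were grown in medium with fetal bovine serum. Controls were collected when the dish was nearly full, on a day that no source used here states, and so drug, culture time and cell density cannot be told apart.

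Wnt ligands are secreted lipid-modified proteins. In the canonical branch they bind a frizzled receptor together with LRP5 or LRP6, which stops a complex of AXIN, APC and GSK3 from marking beta-catenin for destruction. Beta-catenin then enters the nucleus and binds LEF/TCF factors, which otherwise hold their target genes down with TLE corepressors. Other branches run through ROR and RYK receptors and the planar cell polarity proteins without beta-catenin. In the prostate, Wnt signalling takes part in bud formation and in cancer.

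Promoter sequences are shown for a member of each of 4 roles, the LEF/TCF factor, the co-receptor and the corepressor with the largest rise and the frizzled receptor with the largest fall. They are the 250 bases before the start site in RefSeq on GRCh38.p14, read 5′ to 3′ on the gene's minus strand, at chr4:108166302-108166551 for LEF1, chr9:91950229-91950478 for ROR2, chr9:81689548-81689797 for TLE1 and chr2:207769907-207770156 for FZD5. The LEF1 window ends 2655 bases inside the gene as counted, and the windows of ROR2, TLE1 and FZD5 end just before theirs. Capitals mark CG, the dinucleotide at which DNA is methylated.
LEF1: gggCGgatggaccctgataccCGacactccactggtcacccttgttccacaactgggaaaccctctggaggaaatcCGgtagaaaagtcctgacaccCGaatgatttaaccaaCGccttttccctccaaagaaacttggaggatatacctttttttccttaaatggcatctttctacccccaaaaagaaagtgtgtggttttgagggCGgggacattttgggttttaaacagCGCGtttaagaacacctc
ROR2: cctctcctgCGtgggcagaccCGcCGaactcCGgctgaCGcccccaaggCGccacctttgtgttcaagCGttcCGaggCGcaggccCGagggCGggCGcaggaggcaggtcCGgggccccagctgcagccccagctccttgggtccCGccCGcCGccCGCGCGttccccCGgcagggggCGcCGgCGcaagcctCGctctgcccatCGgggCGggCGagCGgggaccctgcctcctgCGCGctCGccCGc
TLE1: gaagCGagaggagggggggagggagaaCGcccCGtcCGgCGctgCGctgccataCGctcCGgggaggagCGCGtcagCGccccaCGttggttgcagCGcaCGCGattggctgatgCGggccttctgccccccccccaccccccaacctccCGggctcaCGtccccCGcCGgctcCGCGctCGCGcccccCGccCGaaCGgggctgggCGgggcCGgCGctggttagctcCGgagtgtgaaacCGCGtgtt
FZD5: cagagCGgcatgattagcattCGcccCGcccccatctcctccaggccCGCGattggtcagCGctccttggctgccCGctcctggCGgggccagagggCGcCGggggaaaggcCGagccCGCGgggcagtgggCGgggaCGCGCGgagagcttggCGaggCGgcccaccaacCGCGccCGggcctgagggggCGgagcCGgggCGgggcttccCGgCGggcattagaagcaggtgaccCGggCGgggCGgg

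The LEF1 window held CG 8 times, that of ROR2 32 times, that of TLE1 33 times and that of FZD5 30 times, against a median of 11 over all 35093 windows and 24 over those of the members. CG was in 93.9% of all windows. Neither strand of the 4 windows held CTTTGA, the core of the motif that LEF/TCF factors bind. Windows were found for 38 of the 47 members. CTTTGA or its reverse complement, TCAAAG, was in a window of 3 of them (7.89% of these genes), namely PORCN, TLE4 and TLE5. Counted per window rather than per gene, it was in 11.2% of all windows, so the shares differ in unit and cannot be compared directly. Some members have several windows, and a match is only a match of letters. G and C made up 47.6% of the LEF1 window but 78.0% of that of ROR2, 75.2% of that of TLE1 and 76.8% of that of FZD5. The LEF1 window lies inside the gene as counted, so its values do not describe the bases before the first counted base.

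Library totals were 35578160 to 42540487 counts in DMSO and 42302153 to 52107644 with enzalutamide. Replicates of a group correlated at 0.987 or more in log2 CPM (counts scaled to a fixed library total), and libraries of different groups at 0.923 or less. Enzalutamide replicate 1 stood apart from the other enzalutamide libraries on the second principal component, which held 5.44% of the variance. Of the 47 members, 30 had their highest enzalutamide value in replicate 1 and 11 their lowest. The same count is not given here over all genes, so it shows nothing particular to the members. Mitochondrial genes took 10.5% to 11.2% of counts in DMSO and 12.1% to 15.7% with enzalutamide. Of the luminal prostate markers, 6 are reported, with a summed level of 6824 to 7006 CPM in DMSO and 5782 to 6469 CPM with enzalutamide. KLK3, the gene of prostate-specific antigen, with 2582 CPM in DMSO and 194 with enzalutamide, KLK2 and TMPRSS2 fell, and FOLH1, HOXB13 and STEAP2, with 1586 and 3129 CPM, rose. Of 7 fibroblast markers, 5 were measured, with a summed level of 13.1 to 13.5 CPM in DMSO and 14.1 to 14.7 CPM with enzalutamide. Their log2 changes spread from -0.49 to 6.69. COL1A1, with a mean of 12.1 CPM in DMSO, held most of the sum there and fell, while 3 of the others rose. COL1A2 and DCN are not analysed here. Endothelial markers summed to 11.1 to 13.0 CPM in DMSO and 8.77 to 11.9 CPM with enzalutamide, over 2 of 5 genes. Of these 1 rose and 1 fell (log2 changes 2.19 and -0.64). Basal-like markers summed to 4.44 to 4.49 and 3.50 to 5.27 CPM over 2 of 5, where 1 rose and 1 fell as well. None of 5 leukocyte markers was among the genes analysed here, which does not show that they had no counts. The part of other cell types, of mitochondrial share or of replicate 1 in the results was not tested.

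The comparison asks which Wnt genes differ after 14 days of enzalutamide. More members rose than fell. The rises included LEF1, ROR2, the ligands WNT2B, WNT4 and WNT9A, the ligand transporter WLS and 5 of 6 measured TLE genes. The falls included the receptors FZD5, FZD6 and ROR1 and the factor TCF7. With edgeR's quasi-likelihood test over all genes and a Benjamini-Hochberg adjusted p under 0.05, 25 members (53.2%) were higher and 8 (17.02%) lower, and 14 did not pass. Over all genes 59.2% passed, 30.0% higher and 29.2% lower. At 2-fold or more, 16 members were higher and 3 lower, where 14.7% of all genes were higher and 12.3% lower. The median log2 change of the members was 0.46 (quartiles -0.21 and 1.23), against 0.00 for all genes, and 33 of 47 lay above zero. Without enzalutamide replicate 1 the count of members higher was again 25, but 13 were lower, with WNT10B, AXIN1, DVL2, GSK3A and LRP5 added. These are bulk samples, in which a change in all cells and a change in the share of cells that make a transcript cannot be told apart.

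**Figure D1:**
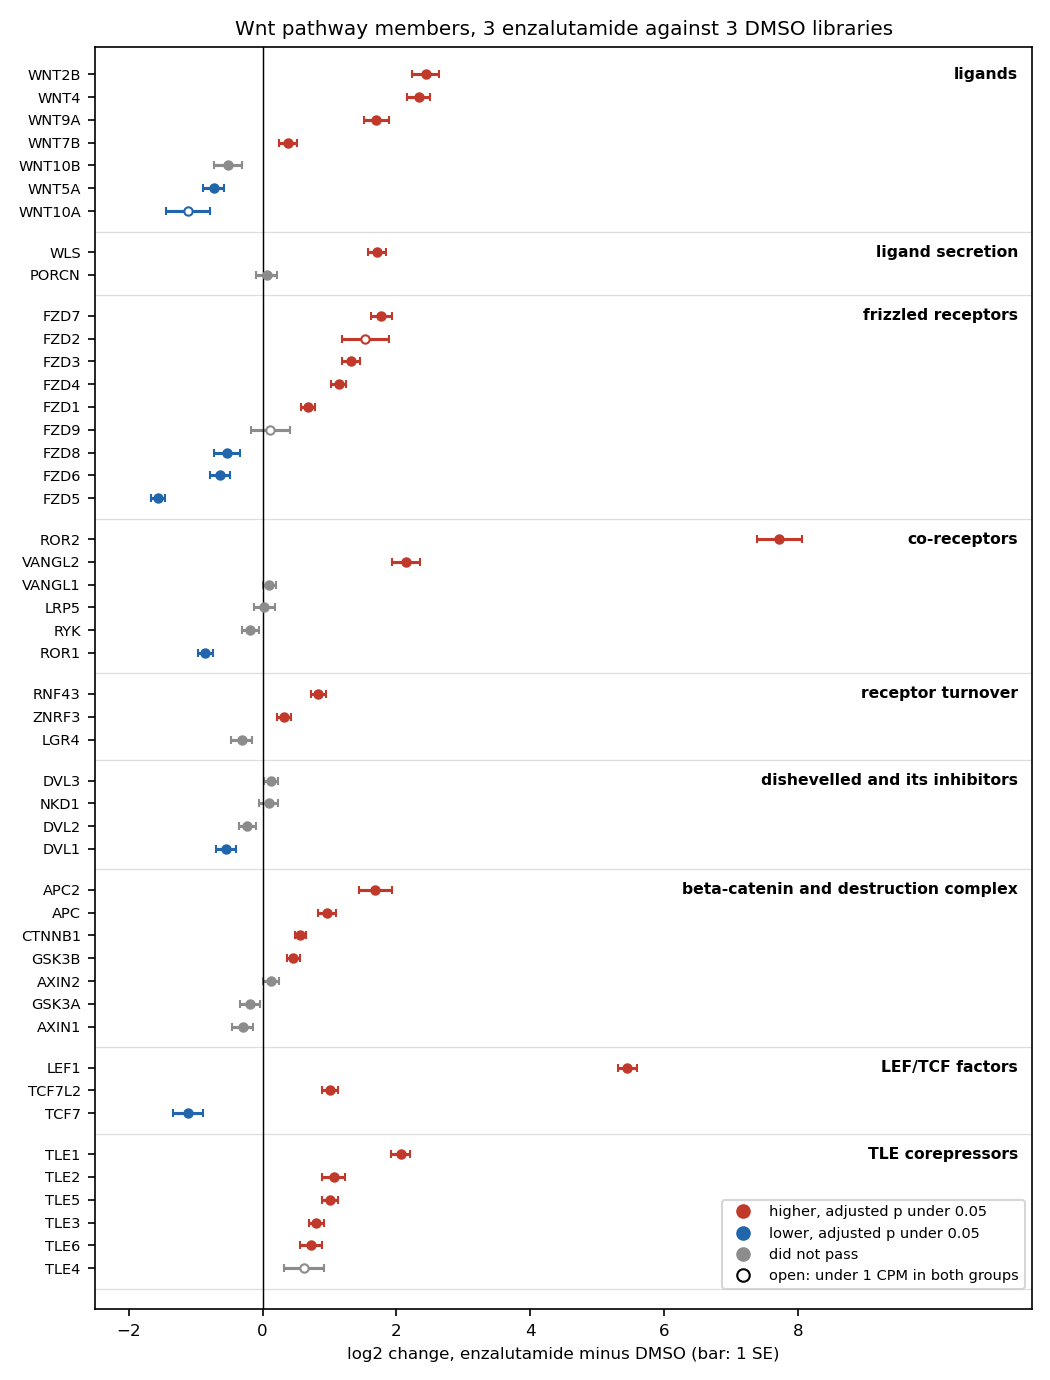
Log2 change of each of the 47 members, enzalutamide minus DMSO, grouped by role; bars are 1 SE, red and blue mark adjusted p under 0.05, and open circles are members under 1 CPM in both groups. ROR2 at 7.72 and LEF1 at 5.45 lie far to the right of the other members, and FZD5 at -1.57 is lowest.

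The makeup of the LEF/TCF factors changed. LEF1, scarce in DMSO, became the most abundant of the 3 measured, TCF7L2 doubled and TCF7 fell. LEF1 (lymphoid enhancer-binding factor, on chromosome 4) had 0.876, 0.855 and 1.02 CPM in DMSO and 40.2, 39.5 and 40.5 CPM with enzalutamide. The 3 enzalutamide libraries lay within about a CPM of each other and far above every DMSO library. Its log2 change was 5.45 ± 0.14 (SE, n = 3 per group), 43.7-fold, with an edgeR adjusted p of 1.27e-09. Raw counts behind the DMSO level were 32, 36 and 36, against 2115, 2089 and 1703 with enzalutamide. LEF1-AS1, a transcript of the opposite strand, shares 279 exon bases with LEF1 (5.20% of its length) and had a mean of 0.612 CPM with enzalutamide, against 40.1 for LEF1.

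TCF7L2, the factor also called TCF4 and the main one of the family in many epithelia, had 9.58, 9.58 and 8.49 CPM in DMSO and 20.1, 16.9 and 18.7 CPM with enzalutamide. All enzalutamide libraries lay above all DMSO libraries, at a log2 change of 1.01 ± 0.12 (SE, n = 3 per group, edgeR adjusted p = 5.33e-05). TCF7, known as TCF1 in T cells, went the other way. It had 1.12, 1.05 and 1.13 CPM in DMSO and 0.532, 0.567 and 0.404 CPM with enzalutamide, again without overlap, with a log2 change of -1.12 ± 0.22 (SE, n = 3 per group, edgeR adjusted p = 0.00148). Its exons share 210 bases with SKP1 on the opposite strand, which had 335 CPM in DMSO and 422 with enzalutamide, and no source used here says if reads were counted by strand, so the level of TCF7 is uncertain.

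Levels of different genes were compared as RPKM, which divides CPM by gene length. The summed RPKM of the 3 factors was 1.65 ± 0.0745 in DMSO and 10.3 ± 0.317 with enzalutamide (SD, n = 3 each). LEF1 made up 9.63%, 9.47% and 12.2% of that sum in the 3 controls and 71.2%, 74.2% and 72.8% with enzalutamide. TCF7L2 went from 82.9% ± 2.01 to 26.8% ± 1.57, although its own level doubled, and TCF7 from 6.63% ± 0.519 to 0.484% ± 0.0911 (SD, n = 3 each). The order changed from TCF7L2, LEF1, TCF7 to LEF1, TCF7L2, TCF7, and in neither group did neighbours in the order overlap.

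Genes of the TLE family, whose full-length members bind LEF/TCF factors as corepressors when beta-catenin is absent, rose broadly. Of 6 measured, 5 passed as higher (83.3%) and 0 as lower, where 30.0% of all genes were higher and 29.2% lower. TLE1 changed most, from 9.47, 8.48 and 8.82 CPM in DMSO to 43.9, 34.99 and 33.0 CPM with enzalutamide, a log2 change of 2.06 ± 0.14 (SE, n = 3 per group, edgeR adjusted p = 8.91e-07). TLE2 (log2 change 1.06 ± 0.17), TLE5 (1.00 ± 0.12), TLE3 (0.80 ± 0.11) and TLE6 (0.72 ± 0.17) rose as well, each without overlap between the groups. TLE4 stayed under 1 CPM and did not pass. TLE5, a short member that lacks the repeat domain of the others, held most of the summed RPKM in both groups, at 29.2 ± 0.742 RPKM in DMSO and 58.5 ± 9.59 RPKM with enzalutamide (SD, n = 3 each). The summed RPKM of the family was 47.3 ± 1.42 and then 94.5 ± 15.4 (SD, n = 3 each), with the highest value, 112, in enzalutamide replicate 1. That sum, mostly TLE5, is not a measure of corepressor activity.

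Among the ligands, 7 of 19 were measured, of which 4 rose (57.1%) and 2 fell (28.6%). Over all genes 30.0% were higher and 29.2% lower. WNT2B, WNT4 and WNT9A, all scarce in DMSO, had the largest rises. WNT4, a ligand known from kidney and gonad development, had 1.61, 2.12 and 1.92 CPM in DMSO and 11.3, 8.41 and 8.84 CPM with enzalutamide, a log2 change of 2.33 ± 0.17 (SE, n = 3 per group, edgeR adjusted p = 1.66e-06). WNT9A, a ligand of joint and limb development, had 1.83, 2.78 and 2.52 CPM in DMSO and 9.01, 7.54 and 6.63 CPM with enzalutamide, a log2 change of 1.70 ± 0.18 (SE, n = 3 per group, edgeR adjusted p = 2.77e-05). For both ligands the groups were well apart, with the highest value in enzalutamide replicate 1. WNT2B had 0.876, 0.594 and 1.08 CPM in DMSO and 4.87, 4.67 and 4.11 CPM with enzalutamide, a log2 change of 2.44 ± 0.21 (SE, n = 3 per group, edgeR adjusted p = 4.57e-06). Of its exon bases 21.5% overlap ST7L on the opposite strand, which had 36.0 CPM in DMSO and 43.2 with enzalutamide, so the level of WNT2B is uncertain.

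WNT5A, the best known ligand of the ROR receptors and of signalling without beta-catenin, fell. It had 2.35, 2.40 and 2.26 CPM in DMSO and 1.27, 1.53 and 1.43 CPM with enzalutamide, without overlap, a log2 change of -0.73 ± 0.16 (SE, n = 3 per group, edgeR adjusted p = 0.00253). WNT10A also passed as lower, but stayed under 1 CPM. WNT10B had 3.56, 3.66 and 3.14 CPM in DMSO and 3.25, 1.91 and 2.04 CPM with enzalutamide, where replicate 1 alone overlapped the controls. It did not pass (log2 change -0.52 ± 0.21, edgeR adjusted p = 0.0536), but did without that replicate (adjusted p = 3.15e-05), and the authors' deposited table counts it as lower. WNT7B, by far the most abundant ligand per length, had 38.1, 41.2 and 37.3 CPM in DMSO and 60.7, 44.2 and 46.0 CPM with enzalutamide. Its log2 change of 0.37 ± 0.13 passed narrowly (edgeR adjusted p = 0.0357), and it no longer passed when any DMSO replicate was left out (adjusted p up to 0.122).

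In RPKM, WNT7B made up 72.5% ± 0.616 of the measured ligand transcripts in DMSO and 64.1% ± 0.929 with enzalutamide (SD, n = 3 each). WNT4 went from 3.83% ± 0.384 to 13.3% ± 0.306, WNT9A from 5.60% ± 0.985 to 12.5% ± 0.970, and WNT10B from 12.6% ± 0.757 to 5.89% ± 0.742 (SD, n = 3 each). WNT10B ranked next after WNT7B in DMSO and below WNT4 and WNT9A, which overlapped each other, with enzalutamide. The summed RPKM of the 7 ligands was 10.6 ± 0.580 in DMSO and 15.4 ± 2.71 with enzalutamide (SD, n = 3 each). WLS, the carrier that takes lipid-modified Wnt proteins to the cell surface, had 9.63, 12.2 and 11.0 CPM in DMSO and 40.0, 34.2 and 32.7 CPM with enzalutamide. Its groups did not overlap, and the log2 change was 1.70 ± 0.13 (SE, n = 3 per group, edgeR adjusted p = 2.69e-06). PORCN, the enzyme that attaches the lipid, had overlapping values of 5.20 to 6.07 CPM in DMSO and 4.82 to 7.01 CPM with enzalutamide, a log2 change of 0.06 ± 0.16 that did not pass.

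**Figure D2:**
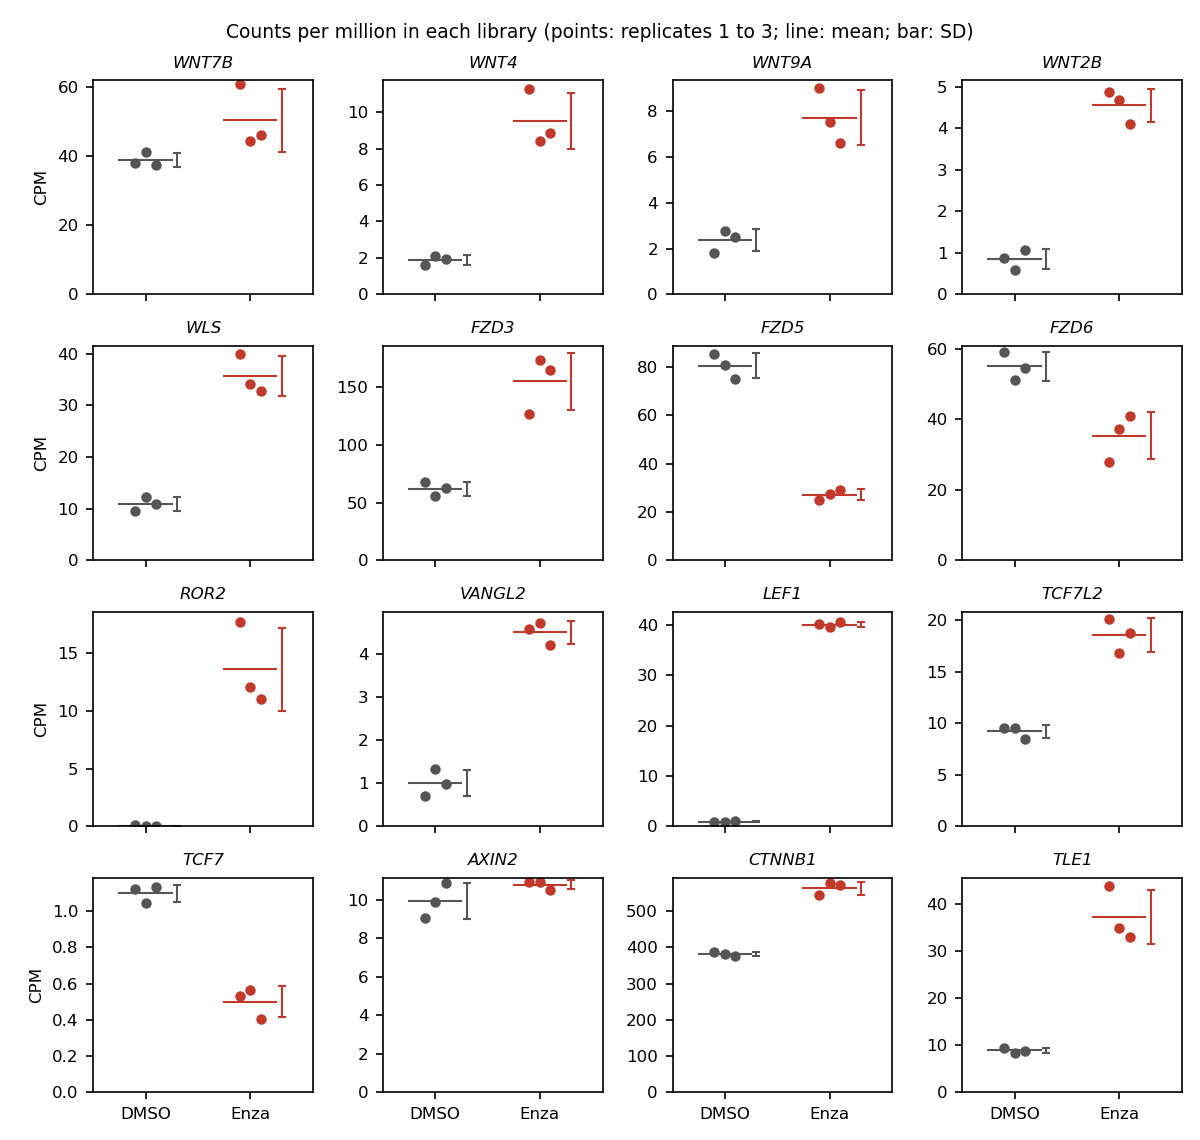
CPM in each library for 16 members on linear axes from 0, with a line at the mean of each group and the SD beside it, DMSO in grey and enzalutamide in red. The points of the groups overlap for AXIN2 alone among the 16. Enzalutamide replicate 1, the leftmost red point, is highest of its group for WNT2B, WNT4, WNT7B, WNT9A, WLS, ROR2, TCF7L2, TLE1 and, almost level with replicate 2, AXIN2.

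Frizzled receptors, the seven-pass membrane proteins that bind Wnt ligands, changed in both directions. Of 9 measured, 5 rose (55.6%) and 3 fell (33.3%), where 30.0% of all genes were higher and 29.2% lower. The share that fell was thus near that of all genes. The summed RPKM of the frizzled receptors was 36.5 ± 2.33 in DMSO and 36.8 ± 3.78 with enzalutamide (SD, n = 3 each), with overlapping groups. FZD5 fell most, from 85.3, 80.6 and 74.9 CPM in DMSO to 24.9, 27.3 and 29.2 CPM with enzalutamide, a log2 change of -1.57 ± 0.11 (SE, n = 3 per group, edgeR adjusted p = 9.77e-07). FZD3, a receptor known from axon guidance, rose from 67.4, 55.5 and 62.8 CPM to 127, 173 and 164 CPM, a log2 change of 1.32 ± 0.13 (SE, n = 3 per group, edgeR adjusted p = 1.67e-05). For both receptors the groups were far apart. FZD7, a receptor of stem and progenitor cells in several tissues, had 1.86, 1.57 and 1.98 CPM in DMSO and 6.56, 6.29 and 5.61 CPM with enzalutamide, a log2 change of 1.78 ± 0.15 (SE, n = 3 per group, edgeR adjusted p = 4.04e-06). FZD4, which also binds the ligand norrin, had 17.5, 16.1 and 15.4 CPM in DMSO and 33.1, 35.1 and 39.5 CPM with enzalutamide, a log2 change of 1.14 ± 0.12 (SE, n = 3 per group, edgeR adjusted p = 1.61e-05). FZD7 and FZD4 too had no overlap between groups, and 18.9% of the exon bases of FZD4 overlap PRSS23 on the opposite strand, at 2.76 CPM in DMSO and 5.85 with enzalutamide.

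FZD1 also rose (log2 change 0.68 ± 0.10), FZD6 fell (-0.64 ± 0.14), and FZD8 fell by a small margin (-0.53 ± 0.20, edgeR adjusted p = 0.0392). FZD8 did not pass when DMSO replicate 1, DMSO replicate 2 or enzalutamide replicate 3 was omitted (adjusted p up to 0.147). FZD2 rose and FZD9 did not pass, both under 1 CPM. In RPKM the order in DMSO was FZD6, FZD5, FZD3, FZD1 and FZD4, each without overlap with the next, followed by FZD8, FZD7, FZD9 and FZD2. FZD7 overlapped both FZD8 and the next gene, FZD9, and FZD9 lay above FZD2 without overlap. With enzalutamide FZD3 and FZD6 led with overlapping values, followed by FZD1 and FZD4, which also overlapped, then FZD5, FZD7 and the scarce FZD9, FZD2 and FZD8. The share of FZD5 in the summed RPKM went from 31.3% ± 1.43 to 10.5% ± 0.381, that of FZD6 from 37.1% ± 0.954 to 23.6% ± 2.20, and that of FZD3 from 12.3% ± 0.681 to 30.4% ± 2.19 (SD, n = 3 each).

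**Figure D3:**
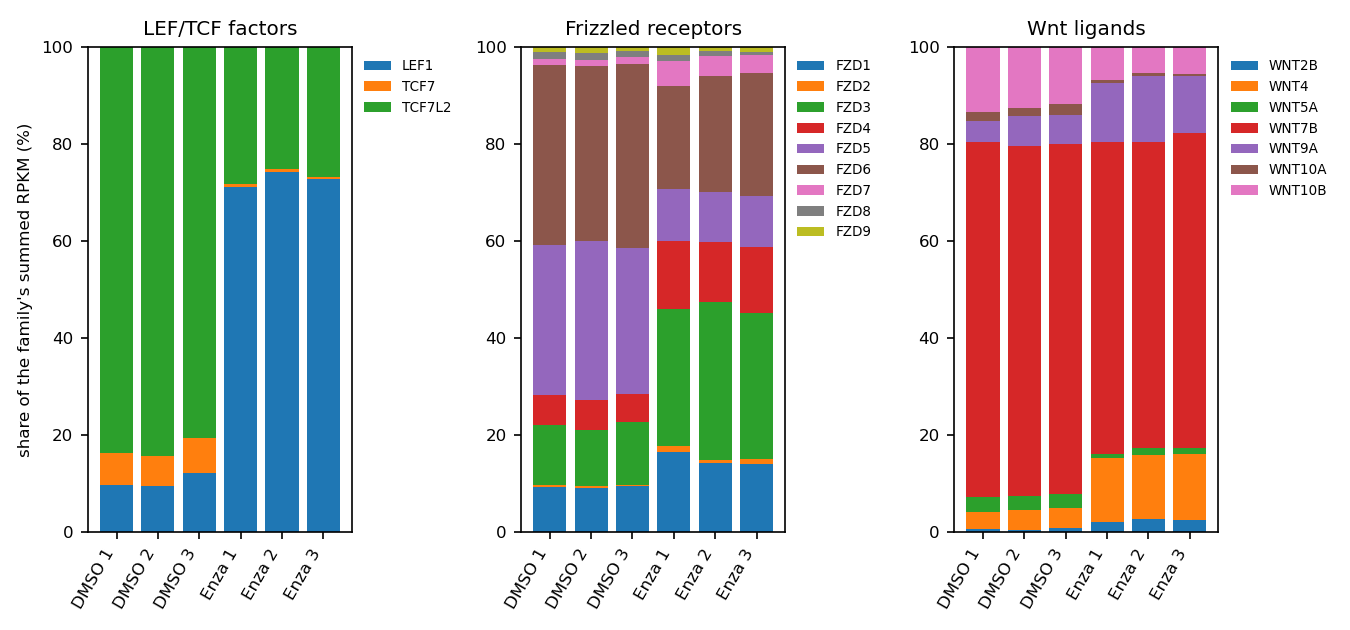
Share of the summed RPKM of the measured LEF/TCF factors, frizzled receptors and Wnt ligands that each gene took in each of the 6 libraries, in percent. LEF1 takes 9.47% to 12.2% in DMSO and 71.2% to 74.2% with enzalutamide, the shares of FZD5 and FZD6 shrink while that of FZD3 grows, and WNT7B stays the largest ligand.

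Among the co-receptors, the receptor kinases ROR1 and ROR2 moved in opposite directions. ROR2, a receptor for WNT5A that acts in limb and skeletal development, had 3, 2 and 2 counts in DMSO and 928, 635 and 464 counts with enzalutamide. In CPM these were 0.0821, 0.0475 and 0.0566 against 17.6, 12.0 and 11.0, a log2 change of 7.72 ± 0.33 (SE, n = 3 per group, edgeR adjusted p = 3.67e-08). With so few control counts the size of the rise is loosely set: the ratio of depth-scaled counts was 224, with an exact 95% counting interval of 108 to 557 that covers counting error only. ROR1 had 13.6, 12.9 and 13.6 CPM in DMSO and 7.01, 7.43 and 7.68 CPM with enzalutamide, without overlap, a log2 change of -0.86 ± 0.11 (SE, n = 3 per group, edgeR adjusted p = 9.78e-05). Per length ROR1 was the more abundant of the pair in DMSO, at 1.99 RPKM against 0.0106, and ROR2 with enzalutamide, at 2.31 RPKM against 1.10.

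VANGL2, a membrane protein of planar cell polarity, had 0.711, 1.33 and 0.990 CPM in DMSO and 4.58, 4.73 and 4.21 CPM with enzalutamide. The groups did not overlap, at a log2 change of 2.14 ± 0.21 (SE, n = 3 per group, edgeR adjusted p = 1.12e-05). Its relative VANGL1 was more abundant and did not pass (log2 change 0.10 ± 0.10). LRP5, the co-receptor of the canonical branch, had 46.2, 50.1 and 45.9 CPM in DMSO and 61.9, 41.9 and 41.0 CPM with enzalutamide. Enzalutamide replicate 1 lay above and the other enzalutamide libraries below the controls. The log2 change of 0.03 ± 0.16 did not pass (edgeR adjusted p = 0.898), and without that replicate it was -0.18 and passed as lower (adjusted p = 0.0213). RYK did not pass (log2 change -0.19 ± 0.13).

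Of 3 measured regulators of receptor turnover, 2 rose (66.7%), by less than 2-fold, where 30.0% of all genes were higher. RNF43 and ZNRF3 are ubiquitin ligases that remove frizzled receptors from the surface, and LGR4 is a receptor for R-spondin, which blocks them. RNF43 had 6.59, 6.63 and 6.73 CPM in DMSO and 12.1, 11.7 and 11.6 CPM with enzalutamide, without overlap, a log2 change of 0.83 ± 0.11 (SE, n = 3 per group, edgeR adjusted p = 1.16e-04). An overlapping gene on the same strand shares 57.6% of its exon bases and was itself at 0.253 CPM in DMSO and 0.289 with enzalutamide. On the opposite strand TSPOAP1-AS1 overlaps 20.3% of them, at 0.745 CPM in DMSO and 1.27 with enzalutamide. The level of RNF43 is thus uncertain. ZNRF3 had 30.4, 32.0 and 29.1 CPM in DMSO and 40.3, 36.3 and 38.0 CPM with enzalutamide. Its log2 change of 0.32 ± 0.10 passed (edgeR adjusted p = 0.0203), but not when any DMSO replicate was left out (adjusted p up to 0.113). LGR4 had 60.4, 52.1 and 56.0 CPM in DMSO and 34.7, 47.4 and 53.5 CPM with enzalutamide, with overlap, and did not pass (log2 change -0.31 ± 0.15, edgeR adjusted p = 0.101), though it did without enzalutamide replicate 3 (adjusted p = 0.0296).

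Of the dishevelled proteins, which relay the signal from frizzled receptors, DVL1 passed, as lower. It had 38.4, 40.0 and 38.2 CPM in DMSO and 33.6, 23.0 and 23.2 CPM with enzalutamide, a log2 change of -0.55 ± 0.15 (SE, n = 3 per group, edgeR adjusted p = 0.0106). Enzalutamide replicate 1 was nearest to the controls, and the groups did not overlap. DVL2 (log2 change -0.23 ± 0.13), DVL3 (0.12 ± 0.11) and NKD1, an inhibitor of dishevelled (0.09 ± 0.15), did not pass. DVL2 passed as lower without enzalutamide replicate 1.

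Beta-catenin and both APC genes rose, and with all 6 libraries no member of the destruction complex passed as lower. CTNNB1, the gene of beta-catenin, had 389, 383 and 375 CPM in DMSO and 543, 577 and 571 CPM with enzalutamide, a log2 change of 0.56 ± 0.08 (SE, n = 3 per group, edgeR adjusted p = 1.90e-04). APC, the scaffold whose loss stabilises beta-catenin, had 77.1, 56.1 and 66.3 CPM in DMSO and 124, 146 and 119 CPM with enzalutamide, a log2 change of 0.97 ± 0.13 (SE, n = 3 per group, edgeR adjusted p = 1.46e-04). In both genes every enzalutamide library lay above every DMSO library. GSK3B, a kinase that phosphorylates beta-catenin, rose (log2 change 0.46 ± 0.09), as did the scarce APC2 (1.68 ± 0.25), while GSK3A (-0.19 ± 0.16) and AXIN1 (-0.30 ± 0.16) did not pass. Without enzalutamide replicate 1 AXIN1 and GSK3A passed as lower. Beta-catenin activity is set mainly at the protein level, which these data do not measure.

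Several members are themselves known targets of beta-catenin and LEF/TCF factors in other cells. AXIN2, the most widely used readout of canonical signalling, had 9.06, 9.86 and 10.9 CPM in DMSO and 10.9, 10.9 and 10.5 CPM with enzalutamide. The groups overlapped and the log2 change of 0.12 ± 0.12 did not pass (SE, n = 3 per group, edgeR adjusted p = 0.415). It ranged from 0.06 to 0.19 when single libraries were left out, and 25.2% of its exon bases lie in an overlapping gene on the same strand that is not analysed here. Of the other such members, LEF1, RNF43 and ZNRF3 were higher, TCF7 was lower and NKD1 did not pass.

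Other genes of the pathway were taken from 6 lists, with 113 of 153 genes measured. Of these 53 rose (46.9%) and 28 fell (24.8%), with a median log2 change of 0.22, where 30.0% of all genes were higher and 29.2% lower. Of 34 other Wnt target genes, 21 were measured, of which 10 rose, 8 fell and 3 did not pass. TNFRSF19, a TNF receptor family member, had 69.5, 74.6 and 77.8 CPM in DMSO and 0.969, 0.756 and 0.879 CPM with enzalutamide, a log2 change of -6.41 ± 0.15 (SE, n = 3 per group, edgeR adjusted p = 9.88e-10). BIRC5, the gene of survivin, which also acts in cell division, had a log2 change of -4.84 ± 0.13, and MMP7, the matrix protease matrilysin, of -4.52 ± 0.38 from 1.16 CPM in DMSO. These genes are named for having the largest changes and do not stand for the list. All 10 targets that rose did so by 2-fold or more, and 7 fell by 2-fold or more. The target list thus spread far in both directions, with quartiles of log2 change at -2.85 and 1.56 against -0.54 and 0.56 for all genes.

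Among nuclear partners of beta-catenin 22 of 25 were measured, and 11 rose (50.0%) and 5 fell (22.7%). Over all genes 30.0% were higher and 29.2% lower. TNIK, a kinase that phosphorylates LEF/TCF factors, had 1.75, 1.54 and 2.21 CPM in DMSO and 6.06, 8.03 and 8.29 CPM with enzalutamide, a log2 change of 2.03 ± 0.19 (SE, n = 3 per group, edgeR adjusted p = 8.20e-06). RUVBL1 and RUVBL2, ATPases of chromatin complexes that bind beta-catenin, fell together (log2 changes -1.31 ± 0.12 and -0.98 ± 0.16). Without DMSO replicate 1 the count of nuclear partners that rose was 6. Destruction complex partners, measured for 26 of 27, had 9 higher (34.6%) and 6 lower (23.1%), shares near those of all genes. PPP2R5B, a regulatory subunit of protein phosphatase 2A, rose (log2 change 1.56 ± 0.15), and the casein kinase CSNK1G3 (-1.18 ± 0.14) and AMER1, which brings APC to the membrane (-0.94 ± 0.11), fell. The 9 became 5 without DMSO replicate 1 and 4 without DMSO replicate 3 or enzalutamide replicate 2.

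Of 24 planar cell polarity genes 20 were measured, with 10 higher and 4 lower, where 30.0% of all genes were higher and 29.2% lower. MAPK10, the neuronal JNK kinase, changed most, from 3.94, 2.97 and 3.96 CPM in DMSO to 48.5, 72.9 and 65.3 CPM with enzalutamide, a log2 change of 4.11 ± 0.19 (SE, n = 3 per group, edgeR adjusted p = 6.35e-08). ANKRD6, a binding partner of dishevelled (log2 change 1.78 ± 0.15), and the polarity cadherin CELSR1 (1.27 ± 0.14) rose, as VANGL2 did. The count that fell was 1 without DMSO replicate 2 or 3 and 2 without enzalutamide replicate 2. In the calcium branch 9 of 15 measured genes rose and 4 fell, a share of falls near that of all genes. Without DMSO replicate 1 the count that fell there was 2. The transcription factor gene NFATC2 (log2 change 1.90 ± 0.27) and the kinase subunits CAMK2B (1.43 ± 0.14) and CAMK2G (1.10 ± 0.11) were among those that rose. Of 9 measured extracellular modulators 4 rose (44.4%) and 1 fell (11.1%), or 3 without enzalutamide replicate 1. NDP, the gene of norrin, a ligand of FZD4, had 0.109, 0.119 and 0.226 CPM in DMSO and 2.24, 1.55 and 1.85 CPM with enzalutamide, a log2 change of 3.63 ± 0.31 (SE, n = 3 per group, edgeR adjusted p = 4.76e-06). TSPAN12, a partner of FZD4 in norrin signalling, rose as well (0.96 ± 0.18), and MEST fell (-0.91 ± 0.10).

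**Figure D4:**
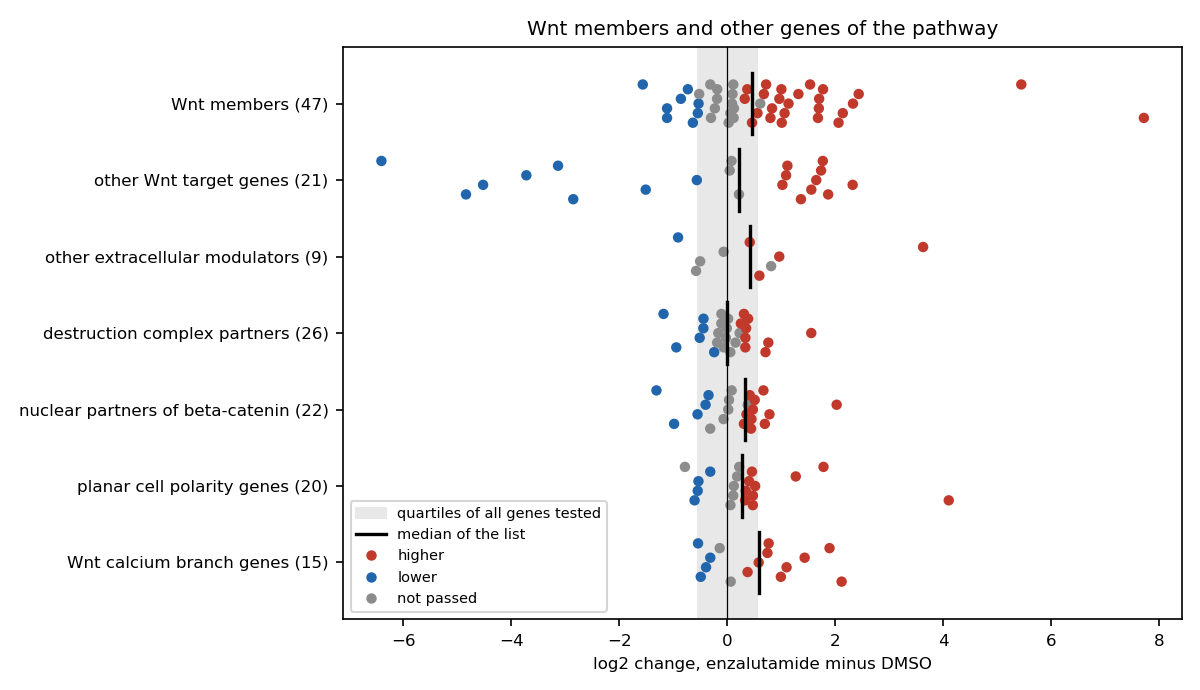
Log2 change of each measured gene, enzalutamide minus DMSO, for the 47 members and the 6 other lists of the pathway, coloured by call, with the list median as a black line and the range between the quartiles of all genes in grey. The members' median is 0.46, and the other target genes reach from -6.41 to 2.32.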

How the data were processed

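Poly(A) RNA of LNCaP cells was sequenced in 3 DMSO and 3 enzalutamide samples, grouped by their titles. Tools were STAR 2.5, featureCounts of Subread 1.6.5 and edgeR 3.20.8 with hg38, per the submitters' processing notes. The authors deposited whole-number read counts per gene, log2 CPM, log2 RPKM, log2 fold changes, p-values and false discovery rates. Each gene in the table has a third-highest count of 9 or more. The members and lists were chosen with earlier results of these data known.

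The counts went into edgeR 4.0.16 under R 4.3.3 (TMM scaling, filterByExpr, robust quasi-likelihood F test on group, 4 residual degrees of freedom, Benjamini-Hochberg adjustment over all 18164 genes). RPKM used the gene lengths in the table. The SE is the size of the log2 change over the square root of F. The biological coefficient of variation was 12.3%. The test was also run on simulated data in which few genes changed. That run cannot show how the test behaves where 59.2% of genes pass, as here. No source used here states whether replicates are separate cultures, and the p-values then reflect only how these samples vary, possibly for technical reasons. Per the authors' deposited table, calls differed for 1 member. Named genes were a fixed set of LEF/TCF factors and core genes, with up to 4 per role and 3 per pathway list that passed at 1 CPM or more, by size of change; WNT7B, WNT10B, other members and LEF1-AS1 are given beside them. Some marker genes of the fixed lists and a motif are not reported here. Alternatives were other scalings, filters and tools, a replicate block and leaving out each replicate.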

Additional observations from a re-analysis of the deposited data

How the results depend on the processing

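No member that passed with the main settings and all 6 libraries changed sign under any alternative run. LRP5, which did not pass there at a log2 change of 0.03, passed as lower without enzalutamide replicate 1. Upper quartile scaling moved the median log2 change of all genes to 0.12. Under it 25 members were higher and 7 lower, 1 was lower by 2-fold or more, and 3 nuclear partners and 1 planar cell polarity gene fell. Tested against a log2 change of 1, 11 members were higher and 1 was lower. Omitting the filter gave the same values, since it removed no gene. WNT10B also passed as lower with RLE size factors, DESeq2 and limma-voom. FZD8 did not pass with DESeq2 (adjusted p = 0.0585), library size alone (0.0520) or upper quartile scaling (0.0960).

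Deviations from the group means correlated at -0.15, -0.14 and 0.05 between same-numbered samples for replicates 1, 2 and 3. Between samples of different numbers they correlated at up to 0.22. With 3 libraries per group, these values cannot show whether same-numbered samples shared a culture or preparation. With a replicate block 23 members were higher and 9 lower, 5 destruction complex partners rose, 2 extracellular modulators fell, and LRP5 had a log2 change of -0.000309.

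Leaving out single libraries gave 23 to 25 members higher and 7 to 13 lower, the 13 without enzalutamide replicate 1, and 1 to 3 lower by 2-fold or more, the 1 without enzalutamide replicate 3. It gave 4 to 12 destruction complex partners and 6 to 13 nuclear partners that rose, and 2 to 4 calcium branch genes, 1 to 4 planar cell polarity genes and 1 to 3 extracellular modulators that fell. Log2 changes ranged from -0.17 to 0.32 for FZD9, -0.090 to 0.17 for PORCN, -0.012 to 0.20 for NKD1 and -0.18 to 0.13 for LRP5, none of which passed with all libraries. The cause was not tested.

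With CPM in place of RPKM, LEF1 took 8.20% of the LEF/TCF sum in DMSO and 67.8% with enzalutamide, FZD5 33.2% and 9.08%, FZD3 25.5% and 51.3% and FZD6 22.7% and 11.7% of the frizzled sum, FZD6 then below FZD5 and FZD3 in DMSO, and WNT7B 77.2% and 66.0% of the ligand sum, since a longer gene then counts for more. The 4 members under 1 CPM and the controls of ROR2 are limited by depth.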
